A study of Mus musculus with 161 samples.

Results

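Tsx and the start of Tsix form a stretch of 45 kb on the mouse X chromosome, and its contacts were followed by chromosome conformation capture carbon copy (5C) in 91 libraries. 5C ligates HindIII fragments that lie close together in fixed nuclei and counts the products of forward and reverse primers across a chosen region, here chrX:98831148-103425147 of mouse genome build mm9. The anchor is this stretch of 45 kb with every fragment that overlaps it, and takes in all pairs of such a fragment. Its fragments span chrX:100604700-100656352. There are 16 of them, of which 13 have data, and they form 5926 of the 211110 forward–reverse pairs of the region. No measured value was used to choose them. Of the fragments with data, 4 overlap Tsx (chrX:100609806-100619919, plus strand) and 9 overlap Tsix (chrX:100626856-100680296, plus strand). The 3 fragments without data lie upstream of Tsx, at the end of Tsx and in an intron of Tsix.

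Tsix is a long noncoding RNA that runs antisense through Xist and holds Xist down on the X chromosome on which it is transcribed. Xist is the noncoding RNA that coats and silences an X chromosome in female cells. The start of Tsix, the enhancer stretch just upstream of it and Tsx lie on one side of a boundary between topologically associating domains (TADs), and the Xist promoter lies on the other. TADs are stretches within which contacts are frequent, and their boundaries are usually bound by CTCF, a zinc-finger protein at which the loop-forming cohesin complex stops. CTCF sites have a direction, and strong loops usually join sites that point towards each other.

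All cells were male mouse embryonic stem cells (mESCs) with a single X chromosome, on the E14Tg2a background. In the transgene lines both endogenous CTCF alleles carried an auxin-inducible degron (CTCF–AID) together with Tir1, and a doxycycline (dox)-inducible FLAG-tagged CTCF transgene sat at the Tigre locus. These cells received auxin and dox for 4 days, so that endogenous CTCF was degraded and the transgene expressed. The reference is the full-length line (14 libraries), and in the same line with auxin but no dox (2 libraries) endogenous CTCF was degraded and the transgene was not induced. A full-length line with low expression (2) was also measured. Deletions in the N terminus were ΔN(1–89) (2, residues 1-88 in the labels), ΔN(90–178) (2, residues 89-178 in the labels), ΔN(179–265) (2), ΔN(264–288) (2), ΔN(1–265) (clone 1, 6; clone 2, 4), ΔN(1–31) (clones 1 and 2, 2 each) and ΔN(13–33) (clone 1, 6; clone 2, 4). Other mutants were Y226A/F228A (2), ΔN(13–33) with Y226A/F228A (2), H288R (2), Mut_Parylation (2), an N/C-term-swap (2), ΔC(576–614) (3), K74R with residues 576-614 deleted (2), K74R with residues 615-736 deleted (2), ΔC(577–736) (1) and ΔC(615–736) (1). Untreated cells without a transgene were the wild-type (WT) parental line (3), endogenous ΔN(13–33) in that line (clone 1, 3; clone 2, 4), CTCF–AID, Tir1 cells (4) and endogenous ΔN(13–33) in those cells (clones 1 and 2, 4 each). Each line is a single clone, so a line and its mutation cannot be told apart where only 1 clone was made. Sequenced libraries of a line are replicates, and p-values measure the spread between these libraries.

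Over the 82 libraries with a complete count table, total counts ranged from 3631870 to 23419010 (median 11971070), and pairs of the anchor over 20 kb apart held 79895 to 530989 counts. Counts between the anchor and the boundary upstream of it ranged from 6260 to 48436. These are PCR products without molecular identifiers, so depth speaks for counting error only. Libraries of a group differed by more than counting noise in every pair compared (chi-square per degree of freedom 3.08 to 25.8).

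The sequences at FLAG–CTCF peaks on either side and within the anchor are shown first, since the contacts described here begin and end near them. The peaks were called in full-length cells, and each is 200 bases long. Both strands were searched for the core letters of the CTCF motif, CC, any 3 bases, AG, any 2 bases and GGC, and a match is in capitals, in forward (plus strand) or reverse-complement orientation. The search matched 25222 of 49682 peaks over the genome (50.8%) and 579 of 1128 on the X chromosome (51.3%). The peak at boundary 3, upstream of the anchor, lies at chrX:100455304-100455503 in an intron of 4930519F16Rik and has a match on the plus strand, CCACTAGATGGC.
Boundary 3 peak: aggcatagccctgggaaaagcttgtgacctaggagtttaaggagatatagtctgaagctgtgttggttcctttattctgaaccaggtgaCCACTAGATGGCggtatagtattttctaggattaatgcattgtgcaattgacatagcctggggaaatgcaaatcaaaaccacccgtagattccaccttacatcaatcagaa
The fragments of the anchor hold 4 peaks, all in introns of Tsix. The first, chrX:100636248-100636447, holds no match to these letters, and is 9.5 kb from the start of Tsix.
Tsix peak 1: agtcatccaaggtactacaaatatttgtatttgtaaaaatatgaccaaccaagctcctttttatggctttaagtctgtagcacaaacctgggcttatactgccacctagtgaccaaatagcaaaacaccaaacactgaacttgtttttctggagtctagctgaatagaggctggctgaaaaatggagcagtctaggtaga
The second, chrX:100639186-100639385, is 12.4 kb from the start of Tsix and has a match on the minus strand, CCACAAGATGGC, printed here as its reverse complement.
Tsix peak 2: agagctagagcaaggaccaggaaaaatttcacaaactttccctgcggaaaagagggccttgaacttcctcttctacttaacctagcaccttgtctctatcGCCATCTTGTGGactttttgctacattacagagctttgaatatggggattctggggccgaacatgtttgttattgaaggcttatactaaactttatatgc
The third, chrX:100649485-100649684, lies 22.7 kb from the start of Tsix, and its match, CCAGAAGAGGGC, is on the minus strand too.
Tsix peak 3: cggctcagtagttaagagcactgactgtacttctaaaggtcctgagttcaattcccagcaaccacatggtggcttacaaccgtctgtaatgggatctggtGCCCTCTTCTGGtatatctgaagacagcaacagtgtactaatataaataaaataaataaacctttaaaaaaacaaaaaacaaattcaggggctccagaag
The fourth, chrX:100655474-100655673, just before the 3′ end of Xist, holds no match and is not printed. On the far side of the anchor, boundary 4 lies over Xist. A peak at chrX:100676984-100677183, in an exon of both Tsix and Xist and 1.5 kb from the start of Xist, has a plus-strand match, CCACTAGAGGGC.
Xist peak 1: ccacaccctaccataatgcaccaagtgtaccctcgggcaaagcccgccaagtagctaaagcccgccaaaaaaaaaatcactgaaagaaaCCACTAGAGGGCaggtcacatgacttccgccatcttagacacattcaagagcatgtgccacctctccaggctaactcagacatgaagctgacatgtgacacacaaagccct
A peak at chrX:100679482-100679681, in an exon of Tsix and 1.0 kb beyond the start of Xist, has another, CCAGCAGGTGGC. The other 2 peaks over Xist, at chrX:100664466-100664665 and chrX:100672930-100673129, hold no match.
Xist peak 2: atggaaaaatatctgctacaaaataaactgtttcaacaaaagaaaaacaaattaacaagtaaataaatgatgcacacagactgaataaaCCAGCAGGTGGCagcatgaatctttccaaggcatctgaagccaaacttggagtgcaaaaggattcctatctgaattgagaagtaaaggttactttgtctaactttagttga
The matches at boundary 3 and in the anchor thus faced each other across the stretch between them, and those in the anchor and near the Xist start faced away from each other. Facing boundary 3 was not particular to the anchor. Between boundary 3 and the anchor, peaks were listed only from within Chic1 onward, and 3 more lie there, in an intron of Chic1. Those at chrX:100567076-100567275 and chrX:100569706-100569905 hold minus-strand matches with the same letters as Tsix peak 3, and the one at chrX:100579972-100580171 holds none. Peaks nearer to boundary 3 were not listed. A match describes letters and does not show which peak takes part in a contact.

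Contacts were read as observed over expected, where observed is the corrected value as deposited, summed over the pairs in a window, and expected is the sum of the mean values at the same distances in the same library. Values are on the log2 scale, and 0 means as frequent as other pairs at these distances. The boundaries are the 6 bins of 20 kb that the study's methods list from untreated CTCF–AID mESCs, and a boundary window takes 20 kb more on each side. Boundary 3 holds the boundary 3 peak printed above and lies upstream of Cdx4 and Chic1, and boundary 4 covers the start of Xist. Between them lie the 200 kb called here the anchor's own domain.

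In full-length cells the anchor met boundary 3 far more often than expected for the distance. The value was 1.21 ± 0.07 (SD, n = 14), 2.31 times the expectation, with a lowest library of 1.08 and a highest of 1.34. Within the whole of its own domain the value was 0.11 ± 0.04. At 50 to 150 kb upstream the anchor stood at 0.44 ± 0.04, and at the same distances beyond boundary 4 at -1.25 ± 0.12.

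Contacts were also frequent across boundary 3, and sparse beyond boundary 4. The window of boundary 2, far upstream at Cited1, had 2.05 ± 0.18, that of boundary 1 had 0.38 ± 0.22, and the stretch between boundaries 2 and 3 had 0.68 ± 0.09. On the Xist side the window of boundary 4 had -1.16 ± 0.10, the domain between boundaries 4 and 5 had -0.71 ± 0.13, the window of boundary 5 had -0.64 ± 0.15 and that of boundary 6 had -0.36 ± 0.30. The domain between boundaries 4 and 5 holds Enox (also known as Jpx) and B230206F22Rik (Ftx), among others, and Rlim, whose product degrades a repressor of Xist, lies at its end. At distances where few products are found the values rest on sparse counts. In the boundary 6 window 54.1% of the corrected values were 0, against 0.0131% in the boundary 3 window.

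In bins of 20 kb, the boundary 3 bin had an observed/expected ratio of 3.10 ± 0.28 in full-length cells, with a lowest library of 2.58 and a highest of 3.51. It fell to 1.90 without dox and 2.05 in ΔN(1–265). A bin nearer to the anchor, over 4930519F16Rik and Gm14848, holds no peak and had 2.87 ± 0.22, 2.73 and 2.98 in the same 3 groups. The bin that holds most of Rlim (chrX:101151148-101171147) had 3.69 ± 1.68, with libraries from 2.34 to 7.92, and 3.04 without dox and 4.48 in ΔN(1–265). On the far side 1 bin was higher, chrX:102611148-102631147, between genes, with 4.30 ± 3.24, 3.74 and 4.97 in these groups, and its full-length libraries ranged from 1.72 to 13.4. A bin over Gm3880, upstream of boundary 3 (chrX:99871148-99891147), had the highest value, 4.48 ± 0.56, against 2.80 without dox and 2.74 in ΔN(1–265), and it rests on 7 pairs.

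**Figure D1:**
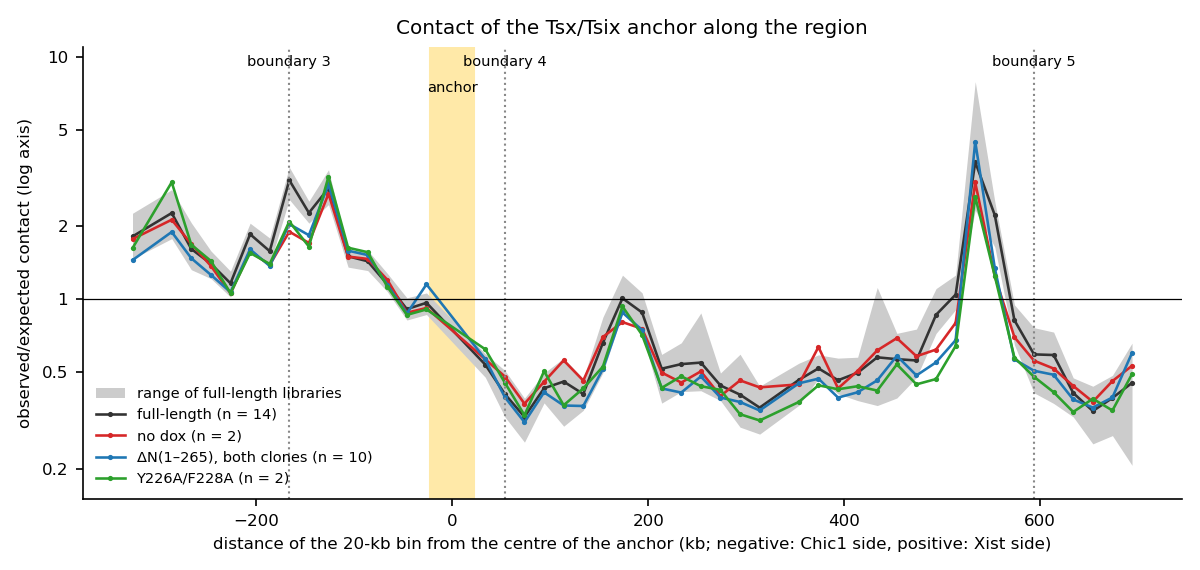
Observed/expected contact of the anchor (log axis) in bins of 20 kb by distance from its centre, as group means, with the range of the 14 full-length libraries in grey and boundaries as dotted lines. At boundary 3 the full-length mean was 3.10 and the mean without dox was 1.90, while beyond boundary 4 most bins lay under 1 in all 4 groups and the bin over Rlim reached 3.69 in full-length cells.

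The first question was how far the anchor's contacts depend on CTCF. Contact with boundary 3 was 0.741 and 0.765 in the 2 libraries without dox, below all 14 full-length libraries. The difference was -0.45, so that observed over expected fell by 27.0% (two-sided exact permutation test with Benjamini–Hochberg adjustment over 20 lines, adjusted p = 0.0256, where the smallest unadjusted p that 2 against 14 libraries allow is 0.0167). The contact left without dox was 1.69 times the expectation.

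A transgene without its N terminus did not restore this contact to the full-length level. With ΔN(1–265) the value was 0.84 ± 0.04 over 10 libraries, which ranged from 0.784 to 0.897 and did not overlap with full-length. The difference was -0.37 and contact fell by 22.5% (permutation test with 100000 resamples, adjusted p = 5e-05 over 5 comparisons of pooled clones and mutants, the smallest that the resamples can give there). Clone 1 had 0.82 ± 0.03 (n = 6) and clone 2 had 0.87 ± 0.03 (n = 4). Both stayed above the libraries without dox, and the pooled difference from them was 0.09 (exact permutation test, adjusted p = 0.0379).

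Lower contact was also found in lines changed between residues 179 and 265. ΔN(179–265) libraries had 0.817 and 0.698, and Y226A/F228A, a pair of substitutions in the segment that binds the cohesin subunits RAD21 and SA2, had 0.702 and 0.821. In both lines every library lay below the full-length range, with differences of -0.45 each and an adjusted p of 0.0256 (exact permutation test). The N/C-term-swap had 0.838 and 0.727, a difference of -0.43 with the same adjusted p. ΔN(13–33) with Y226A/F228A had 0.885 and 0.884, a difference of -0.32 with the same adjusted p. Y226A/F228A and ΔN(1–265) did not differ by the test (-0.08, adjusted p = 0.121), with the libraries of Y226A/F228A overlapping those of the deletion.

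Smaller differences were found in 3 lines. ΔN(264–288) had 1.07 and 1.05 (-0.15, adjusted p = 0.0256, exact permutation test), and Mut_Parylation, in which glutamates that can be poly(ADP-ribosyl)ated are replaced, had 1.06 and 1.03 (-0.16, the same adjusted p). ΔN(90–178) had 1.10 and 1.04, a difference of -0.14 with an adjusted p of 0.0476, and its libraries overlapped the full-length range. The call for ΔN(90–178) was lost on leaving out any of 13 full-length libraries, each then giving an adjusted p of up to 0.0544.

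Deleting only the first residues went the other way. ΔN(1–31) had 1.56 and 1.51 in clone 1 and 1.40 and 1.37 in clone 2, all above the full-length range, with differences of 0.32 and 0.18 (adjusted p = 0.0256 for both, exact permutation test). ΔN(13–33), which removes the segment that binds the cohesin regulator PDS5A, had 1.31 ± 0.03 in clone 1 (n = 6) and 1.45 ± 0.04 in clone 2 (n = 4). The pooled difference was 0.16, or 11.4% more contact (permutation test, adjusted p = 0.000167). Clone 1 overlapped the full-length range and clone 2 did not. ΔN(1–89), which removes the same residues and more, had a mean of 1.27 and was not called (0.06, adjusted p = 0.353).

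For the other lines no difference in contact with boundary 3 was called. The full-length line with low expression had 1.14 and 1.12 (-0.08, adjusted p = 0.2, exact permutation test). H288R had a mean of 1.20, ΔC(576–614) of 1.16, and the lines with K74R of 1.14 and 1.16, with adjusted p from 0.271 to 0.933. In all, 14 of 20 lines were called, 10 lower and 4 higher. The single libraries of ΔC(577–736) and ΔC(615–736) had 0.787 and 1.20 and have no replicate. The paper describes the mutant protein of the former line as very poorly expressed. It also reports that insulation rose with the level of the full-length transgene. None of the comparisons with full-length was adjusted for transgene level, and the part of that level in the mutants' differences was not tested. All these comparisons share the 14 full-length libraries, so the lines' differences are not independent of each other.

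**Figure D2:**
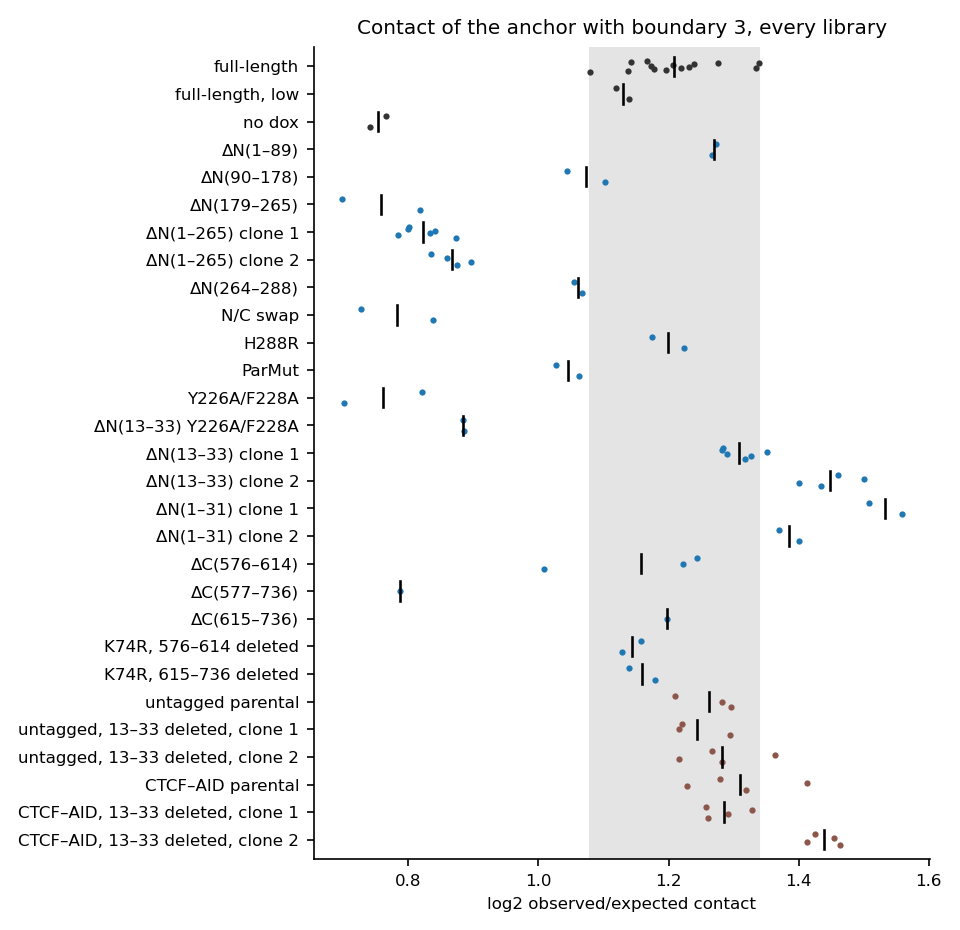
Log2 observed/expected contact of the anchor with boundary 3 in each of the 91 libraries (points) by line, with the mean as a vertical bar and the range of the 14 full-length libraries (1.08 to 1.34) in grey. Libraries without dox, of ΔN(1–265), ΔN(179–265), the N/C-term-swap and Y226A/F228A lie to the left of the grey band, and those of ΔN(1–31) lie to the right.

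The labels name no batch. The libraries' numbers fall into 8 stretches of nearby numbers, called runs here, and whether a run is a batch is an inference. Set against full-length libraries of their own run, the differences were -0.44 without dox and -0.39 for Y226A/F228A (2 against 2 libraries each, which cannot be tested), -0.38 for ΔN(1–265) (adjusted p = 0.00190, exact permutation test within runs) and 0.12 for ΔN(13–33) (adjusted p = 0.00444). On raw counts without the correction, the calls for ΔN(90–178), ΔN(264–288), ΔN(1–31) clone 2 and ΔN(13–33) clone 1 were lost, with adjusted p from 0.171 to 0.48. Their differences on raw counts were -0.13, -0.11, 0.20 and 0.15, in the same directions, over 12 full-length libraries.

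The endogenous deletion of residues 13–33 was compared with each parental line. Contact with boundary 3 was 1.26 ± 0.05 in WT (n = 3) and 1.27 ± 0.05 after the deletion (n = 7), a difference of 0.0031 (adjusted p = 0.967, exact permutation test). In CTCF–AID cells it was 1.31 ± 0.08 (n = 4) and 1.36 ± 0.09 (n = 8), a difference of 0.05 (adjusted p = 0.533). The rise with the ΔN(13–33) transgene exceeded the change in WT cells by 0.15 (permutation test, adjusted p = 0.0332) and that in CTCF–AID cells by 0.10 (adjusted p = 0.478).

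Was the loss of contact with boundary 3 particular to the anchor? A viewpoint of the same length just upstream, over Chic1, met boundary 3 at 0.88 ± 0.12 in full-length cells, 0.38 without dox, 0.51 in ΔN(1–265) and 0.40 in Y226A/F228A. The anchor's loss differed from that of this viewpoint by 0.05, 0.01 and 0.04 in these groups (adjusted p = 0.833 for each, permutation tests), so it was not shown to be particular to Tsx and Tsix. The rise in ΔN(13–33) was larger at the anchor, by 0.15 (adjusted p = 0.023), although not with a separate correction of the counts (adjusted p = 0.0624). A viewpoint beyond boundary 4 met boundary 3 at -0.72 ± 0.18 in full-length cells and at -0.48 without dox and -0.46 in ΔN(1–265). The anchor's change was lower than that viewpoint's by 0.69 without dox (adjusted p = 0.0333), 0.63 in ΔN(1–265) (adjusted p = 8e-05) and 0.59 in Y226A/F228A (adjusted p = 0.0444). With a separate correction of the counts the last had an adjusted p of 0.0879.

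The fragments of the anchor differed widely among themselves. In full-length cells contact with boundary 3 ranged from 0.58 ± 0.13 to 1.00 ± 0.12 over the 4 Tsx fragments. It was highest at the Tsix start and just after it. The fragment that holds the start (chrX:100623270-100629519) had 1.67 ± 0.19, and the next (chrX:100629519-100633845), in an intron, had 1.93 ± 0.15. From there it stood at 1.17 to 1.42 over the 6 next fragments with data, which hold the first 2 Tsix peaks, and at 0.50 ± 0.18 over the last (chrX:100647077-100656352), which reaches the 3′ end of Xist and holds Tsix peak 3 and the anchor peak without a printed sequence.

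**Figure D3:**
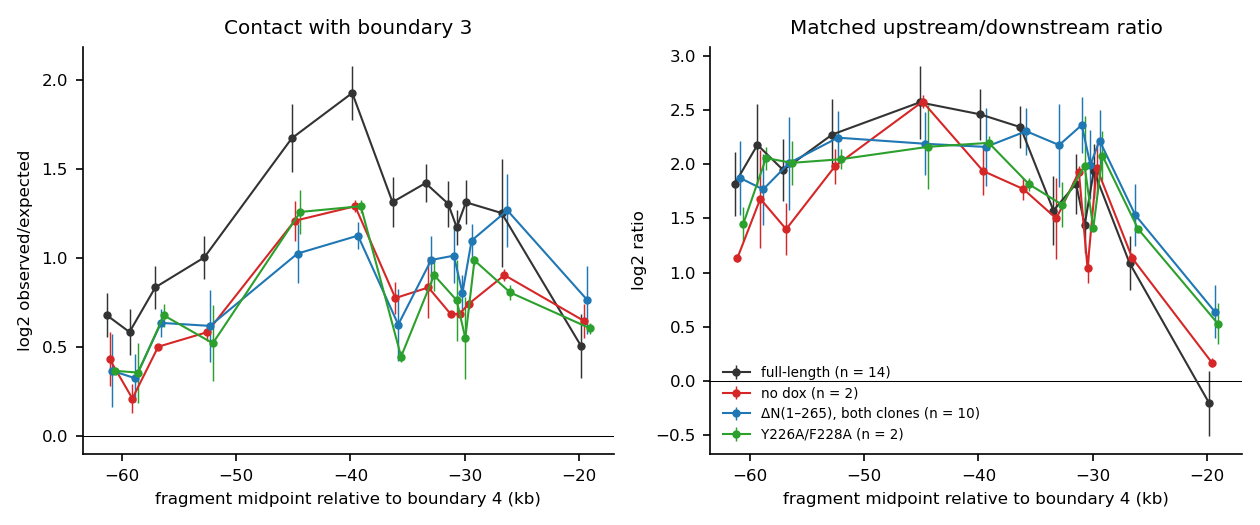
Mean ± SD over libraries of each anchor fragment's contact with boundary 3 (left, log2 observed/expected) and its matched upstream/downstream ratio (right, log2), by the distance of its midpoint from the start of boundary 4 (kb). In full-length cells contact with boundary 3 was highest 39.5 kb before boundary 4, at 1.93, and the ratio was lowest at the last fragment, at -0.21.

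Taken by gene, Tsix fragments met boundary 3 at 1.38 ± 0.09 and Tsx fragments at 0.78 ± 0.09 in full-length cells, and the Tsix value was higher in 14 of 14 libraries. It was also higher in 3 of 3 WT and 4 of 4 CTCF–AID libraries. Without dox Tsix fell to 0.861 and 0.915 and Tsx to 0.409 and 0.468, and no library overlapped with full-length for either gene. The difference was -0.49 for Tsix (adjusted p = 0.025) and -0.34 for Tsx (adjusted p = 0.0311, exact permutation tests over 6 comparisons). For ΔN(1–265), Tsix stood at 0.98 ± 0.04 and Tsx at 0.50 ± 0.06 (adjusted p = 0.00012 for each, permutation test). Not every Tsix fragment was lower. The last, next to Xist, had 0.50 ± 0.18 in full-length cells, 0.64 without dox and 0.76 ± 0.19 in ΔN(1–265). The fragment before it (chrX:100642408-100647077) had 1.253 ± 0.302, 0.903 and 1.268 ± 0.204. All other Tsix fragments with data had lower means in both groups. Contact of single fragments with boundary 3 was not tested.

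The gap between the genes was narrower in ΔN(1–265) and Y226A/F228A and wider in ΔN(13–33). Tsix minus Tsx was 0.60 in full-length cells, 0.49 in ΔN(1–265) and 0.39 in Y226A/F228A, and it was 0.70 in ΔN(13–33), with an adjusted p of 0.0498 for each difference (exact or permutation test). Without dox it was 0.45, a difference of -0.15 that did not pass (adjusted p = 0.125, exact permutation test). With a separate correction of the counts the change of the gap kept no call in Y226A/F228A (adjusted p = 0.0659) or ΔN(13–33) (0.132).

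The second question was whether the anchor stays apart from the Xist side. In full-length cells the anchor's contact across boundary 4 was -0.71 ± 0.13, and libraries ranged from -0.949 to -0.451. Without dox it was -0.808 and -0.771, within that range (difference -0.08, adjusted p = 0.462, exact permutation test). In ΔN(1–265) it was -0.92 ± 0.08, a difference of -0.20 (permutation test, adjusted p = 1e-04), with libraries that overlapped. Clone 1 was the only line called (-0.22, adjusted p = 0.0103), and clone 2 had -0.17 (adjusted p = 0.0833). Y226A/F228A had -0.998 and -0.927, a difference of -0.25 that did not pass (adjusted p = 0.133).

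The matched ratio sets contact 50 to 150 kb upstream against contact at the same distances beyond boundary 4. It was 1.69 ± 0.15 in full-length cells, a 3.23-fold preference for the upstream side, with libraries from 1.53 to 2.08. Without dox it was 1.46 and 1.45, below every full-length library, a difference of -0.24 that did not pass over 20 lines (adjusted p = 0.0833, exact permutation test). No line was called. Pooled ΔN(1–265) had 1.86 ± 0.16, a difference of 0.17 with an adjusted p of 0.0442 (permutation test), which was 0.0686 at 50 to 100 kb and 0.0927 within runs. ΔN(1–265) also exceeded the libraries without dox, by 0.41 (adjusted p = 0.0442).

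In untreated cells the separation was stronger. The ratio was 2.35 ± 0.17 in WT (n = 3) and 2.12 ± 0.12 in CTCF–AID cells (n = 4), and contact across boundary 4 was -1.05 ± 0.08 and -0.85 ± 0.21. The full-length transgene line stood below its untreated CTCF–AID parent in the ratio, by -0.43 (adjusted p = 0.00784, exact permutation test), though not by the test in contact across boundary 4 (0.14, adjusted p = 0.259). These lines differ in treatment, in the source of CTCF and in its level, which the paper reports as lower for the full-length transgene. These differences cannot be told apart. The endogenous deletion of residues 13–33 left the ratio at 2.27 in WT cells (-0.08, adjusted p = 0.537) and 2.05 in CTCF–AID cells (-0.07, the same adjusted p).

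**Figure D4:**
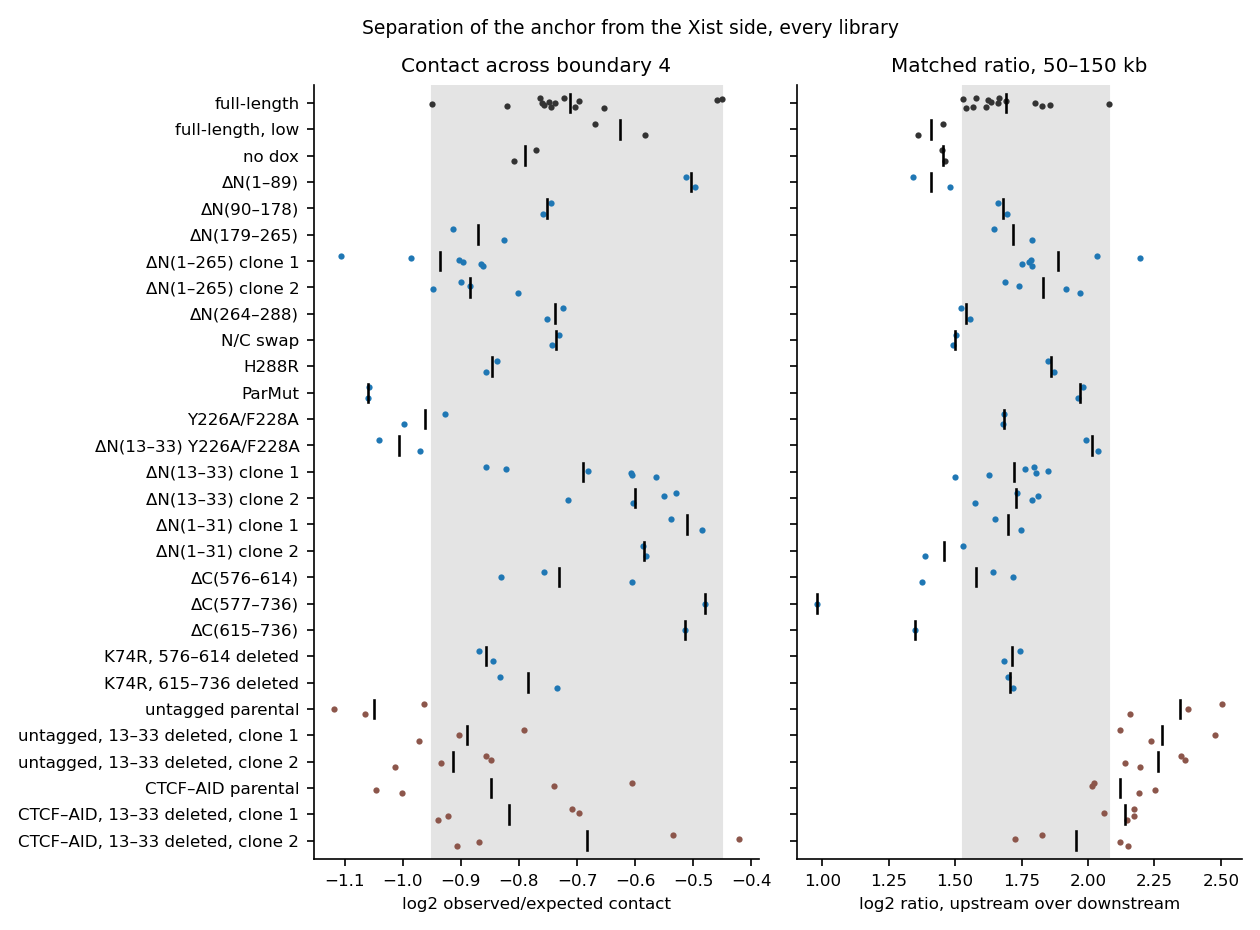
Contact across boundary 4 (left, log2 observed/expected) and the matched upstream/downstream ratio at 50 to 150 kb (right, log2) in each of the 91 libraries by line, with means as bars and the range of the full-length libraries in grey. The ratio without dox was 1.46 and 1.45, left of the grey range of 1.53 to 2.08, and the 3 WT libraries lie at 2.16 and above.

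In full-length cells the matched ratio along the anchor was highest at the Tsix start and lower on either side of it. It was 1.82 to 2.28 over the Tsx fragments, 2.57 ± 0.34 at the fragment with the Tsix start and 2.46 ± 0.24 at the next. At the last fragment, next to Xist, it was -0.21 ± 0.30, so this fragment met both sides about alike. In WT and CTCF–AID cells the fragment with the first Tsix peak was highest, at 3.37 ± 0.46 and 3.06 ± 0.09. The start had 3.28 ± 0.42 and 2.97 ± 0.43 there. In ΔN(1–265) the highest was chrX:100639613-100640516, at 2.36 ± 0.26. Taken by gene, the ratio in full-length cells was 1.99 ± 0.15 for Tsx and 1.60 ± 0.17 for Tsix. Untreated cells did not show this order. In WT cells Tsx had 2.15 ± 0.22 and Tsix 2.42 ± 0.16 (n = 3). In CTCF–AID cells they had 2.10 ± 0.17 and 2.14 ± 0.12 (n = 4). Without dox Tsx had 1.40 and 1.56, all below the full-length range (-0.52), and Tsix had 1.43 and 1.48 (-0.15), with adjusted p of 0.05 and 0.367 (exact permutation tests). The difference between the genes in this change was 0.37 (adjusted p = 0.0242). It was 0.30 in ΔN(1–265) (adjusted p = 0.0024) and 0.19 in Y226A/F228A (adjusted p = 0.0242), and -0.24 in ΔN(13–33) (adjusted p = 0.00972). For the endogenous deletion of residues 13–33 it was -0.37 in CTCF–AID cells (adjusted p = 0.0242, exact permutation test). In WT cells that deletion gave -0.11 (adjusted p = 0.317, exact permutation test). The Tsix ratio in ΔN(1–265) rose by 0.25 (adjusted p = 0.0139), and that of Tsx stood at 1.95 (-0.05, adjusted p = 0.704). The rise was not seen at the Tsix start, where the deletion had 2.19 ± 0.29, nor at the next fragment (2.16 ± 0.36). Fragments nearer to Xist were higher. The one at chrX:100636562-100639613 had 1.57 ± 0.32 in full-length cells and 2.18 ± 0.38 in the deletion, and the last had 0.64 ± 0.24 in the deletion. Single fragments were not tested.

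Contact within the own domain was called in none of the transgene lines against full-length. It was 0.11 ± 0.04 in full-length cells, 0.0303 and 0.0311 without dox (-0.08, adjusted p = 0.167, exact permutation test), 0.12 in ΔN(1–265) and 0.0311 and 0.0579 in Y226A/F228A. By the test, 0 of 20 lines differed from full-length. By gene, Tsx had -0.08 ± 0.08 and Tsix 0.18 ± 0.06 in full-length cells. Tsx was lower in ΔN(1–265), with a difference of -0.11 (adjusted p = 0.00168, permutation test), while Tsix had 0.22 (0.04, adjusted p = 0.0601). The endogenous deletion of residues 13–33 in WT cells went with -0.04 (adjusted p = 0.0333, exact permutation test), and this call was lost on raw counts (adjusted p = 0.578) and within runs (0.08). The full-length line was lower than untreated CTCF–AID cells, which had 0.17 ± 0.0075 (-0.06, adjusted p = 0.0105, exact permutation test), and on raw counts this call was lost too, at -0.07 (adjusted p = 0.578).

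Contact with the boundary 5 window, beyond Rlim, was -0.64 ± 0.15 in full-length cells and -0.96 ± 0.11 in ΔN(1–265), a difference of -0.33 (permutation test, adjusted p = 1e-04). It was -0.30 in clone 1 and -0.37 in clone 2. Clone 2 lost its call without 3 of the libraries in turn (highest adjusted p 0.0556), and on raw counts the pooled call was lost (adjusted p = 0.16). Without dox the values were -0.901 and -0.698, a difference of -0.16 (adjusted p = 0.364, exact permutation test). Contact with the boundary 2 window was 2.02 without dox and 1.42 ± 0.15 in ΔN(1–265), against 2.05 ± 0.18, and was not tested.

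The third question was whether the anchor prefers fragments with CTCF. The preference is the log2 observed/expected value of partners 50 to 1000 kb away that overlap a FLAG–CTCF peak, minus that of partners without one. It was 0.85 ± 0.08 in full-length cells, and 0.426 and 0.474 without dox, below all full-length libraries (-0.40, adjusted p = 0.0333, exact permutation test over 20 lines). It was 0.62 ± 0.06 in ΔN(1–265) (-0.23, permutation test, adjusted p = 5e-05). Of 20 lines, 10 were called, all lower. They were the libraries without dox, low full-length expression (0.71), both ΔN(1–265) clones (0.60 and 0.65), ΔN(179–265) (0.66), ΔN(264–288) (0.55), H288R (0.70), the N/C-term-swap (0.54), Y226A/F228A (0.65) and ΔN(13–33) with Y226A/F228A (0.66). H288R and low expression, which were not called for contact with boundary 3, lost this call at 100 to 600 kb (adjusted p = 0.111 and 0.146). On raw counts 7 of the 10 calls were lost, with adjusted p from 0.0534 to 0.102, although all 7 differences stayed negative (-0.39 to -0.16, over 12 full-length libraries), and that without dox could not be tested. At 100 to 600 kb calls in the other direction appeared, for ΔN(1–31) clone 1 (0.14, adjusted p = 0.0333), ΔN(13–33) clone 2 (0.17, adjusted p = 0.00871) and pooled ΔN(13–33) (0.14, adjusted p = 0.00467, exact or permutation tests). Pooled ΔN(13–33) was also called within runs (0.09, adjusted p = 0.0252). Peaks were called in full-length cells after 2 days of auxin and dox, so occupancy in the mutants is not part of this measure.

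Single pairs were fitted with limma in 1 model over all groups, on log2 of the corrected value plus 1 over the expectation plus 1. Of the pairs at least 20 kb apart, 55647 had a mean scaled value of at least 2, and 1421 of them belong to the anchor. A call is an adjusted p under 0.05 over all 55647 pairs. Without dox 6 anchor pairs were called lower and none higher, 0.422% of those tested, against 0.0647% of all pairs called and 0.0629% called lower. All 6 joined the anchor to the boundary 3 window. These calls depended on the fit, with 0 left within runs and 1 with the replicate block. Only 1 library without dox has a complete count table, so edgeR on raw counts had no replicate there and cannot decide. In Y226A/F228A 16 were lower and none higher (1.13%, against 0.521% of all pairs called and 0.509% called lower), and 9 of them lay in the boundary 3 window.

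In ΔN(1–265) 94 anchor pairs were called, 6.62% against 1.02% of all pairs (0.189% higher and 0.834% lower). The median difference of the 1421 anchor pairs was -0.24, and that of all pairs was -0.04. Of the called pairs 70 were lower. Their partners were in the boundary 3 window (26 of 84 tested), between boundary 2 and that window (19 of 468), between boundary 4 and 40 kb before boundary 5 (16 of 472), next to boundary 5 (6 of 54) and between boundaries 1 and 2 (3 of 91). The other 24 were higher, and all joined the anchor to nearby partners. Of these 14 lay between the boundary 3 window and the anchor, 8 joined fragments within the anchor and 2 lay between the anchor and the end of boundary 4. In ΔN(179–265) 25 anchor pairs were called, of which 24 were lower (1.76% called, against 0.855% of all pairs, 0.83% lower). The N/C-term-swap had 4 called (0.0503% of all pairs) and ΔN(13–33) with Y226A/F228A had 3 (0.0162% of all pairs), all lower.

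**Figure D5:**
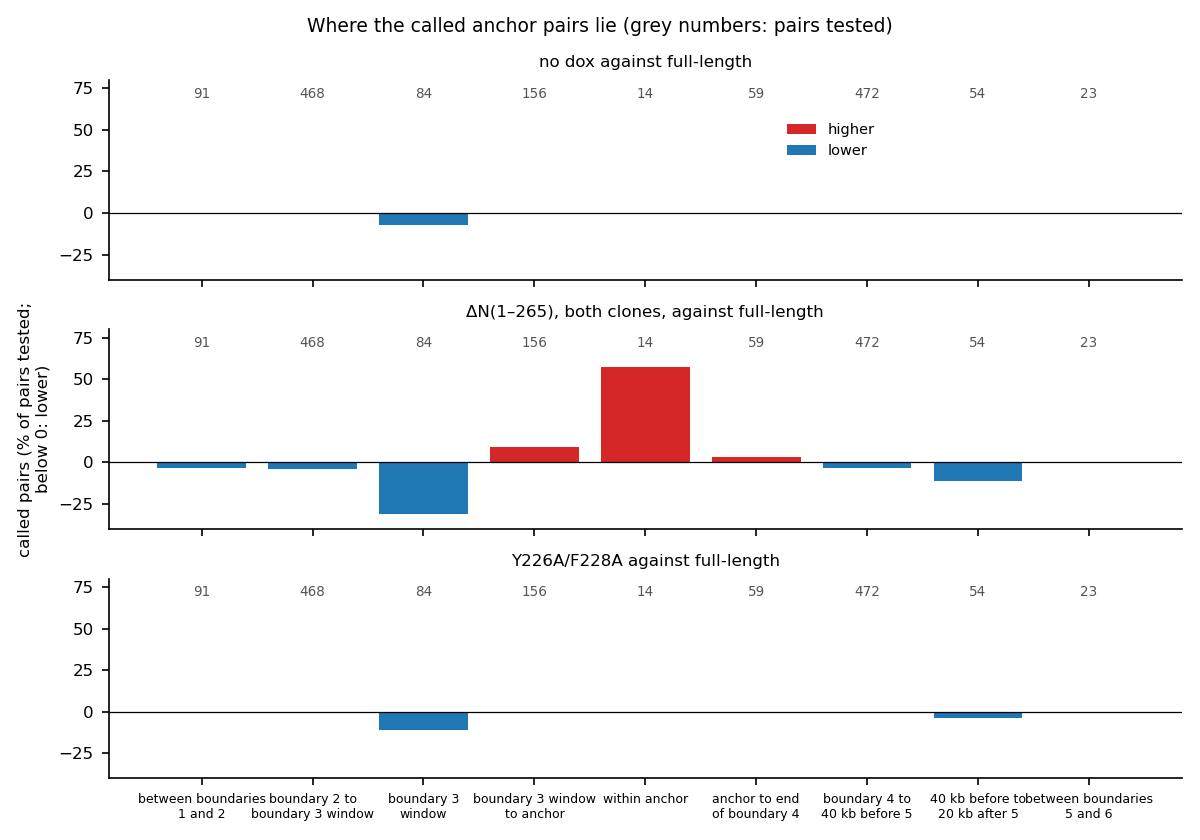
Share of the tested anchor pairs (%) called higher (red, above 0) or lower (blue, below 0) by where the partner lies, for no dox, ΔN(1–265) and Y226A/F228A against full-length, with the number of pairs tested in grey. The lower pairs without dox lie in the boundary 3 window (6 of 84), as do 26 of the 70 lower pairs in ΔN(1–265).

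Falls without dox were seen in single pairs of Tsix intron fragments, called in the fit over all groups. The fragment that follows the Tsix start and the one that holds the boundary 3 peak (chrX:100455323-100468776) had a scaled value of 52.0 at lowest, 62.2 at the median and 69.6 at highest in full-length libraries, against 28.6 and 29.4 without dox. The libraries do not overlap, and the fitted difference was -1.07 ± 0.20 (SE; limma, adjusted p = 0.00781). The same partner met the fragment with the second Tsix peak at 29.7, 40.2 and 50.3 in full-length cells (lowest, median and highest), and at 17.0 and 23.7 without dox (-0.97 ± 0.20, adjusted p = 0.0239). These are the fragments of the boundary 3 peak and of Tsix peak 2, whose printed matches face each other. The fragment that follows the Tsix start holds no peak, and neither does either fragment of the largest fall, given next. Whether motif direction bears on the falls was not tested. The largest fall without dox joined a fragment of 990 bases in the Tsix intron (chrX:100641123-100642113) to one in 4930519F16Rik (chrX:100476707-100477396) without a peak, at 11.7, 18.6 and 24.3 in full-length cells and 6.79 and 7.40 without dox (-1.28 ± 0.20, adjusted p = 0.000588).

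In ΔN(1–265) the largest falls were at long range. The same Tsix fragment met one 8.3 kb upstream of Rlim (chrX:101184836-101185030) at 7.33, 10.3 and 13.95 in full-length libraries and at 0, 2.44 and 5.13 in the deletion (-1.73 ± 0.21, adjusted p = 1e-07), with no overlap. A fragment with a peak in an intron of Hdac8 (chrX:99670588-99673333) met the anchor 968 kb away with a median of 6.92 against 0.996 (-1.68 ± 0.31, adjusted p = 0.000741), and the libraries overlapped. A fragment with a peak 749 kb upstream (chrX:99883455-99889288), between genes, had a median of 19.96 against 8.02 (-1.66 ± 0.32, adjusted p = 0.00126), and these overlapped too.

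The largest rises in ΔN(1–265) were near the anchor. The first Tsx fragment (chrX:100609230-100611183) and one in the Tsix intron 29.9 kb away (chrX:100639613-100640516) had a median of 22.6 in full-length cells and 42.5 in the deletion, and every library of the deletion (35.8 to 55.7) lay above the full-length range of 9.96 to 31.2 (0.97 ± 0.17, adjusted p = 0.000377). A second Tsx fragment (chrX:100613218-100615704) met the one that holds the first Tsix peak (chrX:100633845-100636562) at a median of 24.8 and 41.1 (0.71 ± 0.15, adjusted p = 0.00398). Another (chrX:100618506-100618972) met the fragment at the start of Xist (chrX:100672498-100681342), which holds both printed Xist peaks, at a median of 8.72 and 14.1 (0.78 ± 0.20, adjusted p = 0.0372). The libraries of both of these pairs overlapped.

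In Y226A/F228A the pairs that fell most reached across boundary 4. The last anchor fragment and one between genes 466.1 kb away (chrX:101116446-101119154) had 1.62, 4.90 and 8.78 in full-length libraries and 0 in both mutant libraries (adjusted p = 0.00151), so no fold is given. The Tsix start fragment met Zcchc13 (chrX:100826815-100828460) at 3.33, 6.74 and 12.3 in full-length cells and at 0 and 1.40 (-2.27 ± 0.45, adjusted p = 0.00478). A Tsix intron fragment met one 2.9 kb upstream of Rlim (chrX:101178882-101180231) at 4.35, 6.78 and 9.98, and at 0.0387 and 2.28 in the mutant (-2.10 ± 0.40, adjusted p = 0.00268). In all 3 pairs the mutant libraries lay below every full-length library, and the values are small.

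For the endogenous deletion of residues 13–33, limma called 0 of 1421 anchor pairs in WT cells (against 0.00539% of all pairs) and 0 in CTCF–AID cells (against 0% of all pairs). At an unadjusted p under 0.05 there were 113 and 91 of 1421, against 3458 and 4239 of all 55647 pairs. EdgeR's quasi-likelihood test on raw counts also called 0 anchor pairs in both. The ΔN(13–33) transgene had 0 anchor pairs called by limma (0% of all pairs too), although its summed contact with boundary 3 was higher. At an unadjusted p under 0.05 it had 84 of 1421 anchor pairs, against 3241 of all 55647 pairs.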

How the data were processed

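The 91 5C libraries were made by the authors with 486 forward and 504 reverse primers in mm9 coordinates, and each deposited count table gives raw counts per primer pair. The signal the authors deposited is the count after iterative correction at the fragment level. In 78 libraries it is a symmetric matrix and in 13 a forward–reverse matrix, and each was rescaled here to 1000000 over forward–reverse pairs. The count tables of 9 libraries stop early and were used in no step that starts from counts, which leaves 82. The submitters' processing notes name Bowtie2, SAMtools, mm9 and mm10. The deposited list of FLAG–CTCF peaks, called by the authors in full-length cells, gives mm9 coordinates without a score. Genes are from GENCODE on mm9, and 1215 of 1215 fragment ends tested lay within 8 bases of a HindIII site.

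Groups follow the labels, except that 1 ΔC(576–614) library whose title names another mutant was grouped by its cell line. The titles of some ΔN(1–265) libraries name no clone, and these were placed in clone 1 or clone 2. Values per library (observed over the mean at the same distance in bins of 20 kb, 100 kb at long range, pairs at least 20 kb apart) were compared by two-sided exact permutation tests, or by 100000 resamples where both groups had at least 10 libraries, with Benjamini–Hochberg adjustment within each family and a threshold of 0.05. Pairs were fitted with limma 3.58.1 (trend, R 4.3.3), and edgeR 4.0.16 on counts was an alternative. For no dox, ΔN(1–265) and Y226A/F228A the 3 called pairs with the largest rise and the 3 with the largest fall are named. The tests were checked on simulated data. Same-numbered WT and CTCF–AID libraries deviated together (correlation 0.203 to 0.401 over 3 pairs), as did no other groups compared. The members, lists and tests were chosen with earlier results of these data known. The split by gene and the 2 viewpoints were added after the data had been seen.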

Additional observations from a re-analysis of the deposited data

Results flagged for a closer look

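The change in contact with boundary 3 differed between the ΔN(13–33) transgene, against the full-length line, and the endogenous deletion of the same residues, against WT cells. The difference between the 2 changes was 0.153 on the log2 scale (permutation test, p = 0.00554, adjusted p = 0.0332). Against the deletion in CTCF–AID cells it was 0.104 and did not pass (adjusted p = 0.478). The transgene cells were treated with auxin and dox and the others were not. The paper also reports a lower CTCF level from the full-length transgene than from the CTCF–AID alleles. The genotype, the treatment and the CTCF level cannot be told apart. Among 48 sets of libraries tested for a library far from the rest, 0 had one. Each set was 1 measure in a line with 4 or 6 libraries. The 14 full-length libraries and the lines with fewer than 4 were not tested in this way.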

How the results depend on the processing

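No result was reversed under any alternative. Differences that changed sign with no call before or after were counted as unchanged. Of 176 differences on raw counts without correction, 19 lost a call, 2 gained one and 7 without a test moved by more than the spread. These numbers were 5, 1 and 0 of 176 with a separate correction, 6, 1 and 12 of 168 within runs, and 3, 2 and 45 of 174 with the replicate block. With libraries left out in turn, 25 of 2832 lost a call and 9 gained one. The others were unchanged, and most of them had no call to lose.

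On raw counts the library left without dox gave differences of -0.17 (own domain), -0.65 (boundary 3) and -0.54 (peak preference), with no test. Calls were lost there for own-domain contact after the endogenous deletion in WT cells (-0.031), boundary 5 in ΔN(1–265) (-0.37) and peak preference in Y226A/F228A (-0.35). As a share of contact without an expectation, own-domain contact rose in ΔN(1–265) (0.16). Within runs, own-domain contact differed by -0.13 without dox and -0.0040 in Y226A/F228A, with no test, and by -0.041 after the endogenous deletion. The matched ratio in ΔN(1–265) differed by 0.16 at 50 to 100 kb, 0.15 within runs and 0.17 with the replicate block, each past the threshold no longer. With the replicate block, 2 against 2 libraries gave -0.36 (no dox) and -0.35 (Y226A/F228A) for boundary 3, -0.34 and -0.61 for boundary 5, and -0.29 and -0.084 for peak preference, with no test. Replicate numbers do not pair these groups. Between CTCF–AID and WT cells (4 against 3 libraries) the smallest p that the exact permutation test allows is 0.0571. No call was possible there, so the block could change none.

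Called pairs without dox were 10 with a pseudocount of 0.25, 1 with the replicate block, and 0 within runs and by edgeR, against 6. Leaving out the second library without dox left 1 (range 1 to 8). In ΔN(1–265) called anchor pairs were 54 without a filter on low values, 51 with the replicate block and 55 by edgeR, against 94. Over all pairs these settings called 230 (of 208839 tested without the filter), 335 and 265, against 569. In Y226A/F228A called anchor pairs were 33 with a pseudocount of 0.25 and 9 within runs, against 16. Over all pairs these settings called 742 and 111, against 290. After the endogenous deletion in WT cells 1 anchor pair was called with that pseudocount, without a filter, or without single libraries (range 0 to 1), against 0. Over all pairs 14 were called with that pseudocount and 33 without a filter, against 3. The causes were not tested.

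With 2 libraries in a line, a call needs no overlap with full-length or nearly none, so a line without a call is not shown to match it.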
